A study of Rattus norvegicus with 15 samples.

Results

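Cell cycle and proliferation genes were followed across the striatum of hemiparkinsonian rats with and without L-DOPA and with infusion of an inhibitor of MEK, the kinase that phosphorylates ERK. The set was a list of 36 genes named by function, and each gene was read from the transcript of the array that carried that symbol alone, the brightest one where there were several. A transcript was found for 34 of the 36, and Birc5 and Cenpe had none. The whole table held 36685 transcripts, of which 18511 had 1 symbol. Ccnb2, Mcm3 and Rrm2 each had more than 1 transcript.

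All rats were adult male Sprague-Dawley rats, and each array held the striatum of the operated side of 1 rat, with 3 arrays in each of 5 groups. The Normal group was sham-operated. The PD group carried a unilateral lesion made with 6-OHDA, a toxin of dopamine neurons, in the right medial forebrain bundle and got no L-DOPA. The LID group had the same lesion and L-DOPA with benserazide once a day for 3 weeks, and had developed dyskinesia. LID+Vehicle and LID+PD98059 rats were lesioned and given L-DOPA in the same way, were dyskinetic before infusion began, and carried a cannula in the right lateral ventricle. Through it they got vehicle, which contained DMSO and Tween 80, or PD98059, daily for 12 days from day 10 of L-DOPA. Lesioned rats were kept for the study only if turning after apomorphine marked a full lesion. The 9 rats with L-DOPA had been chosen for dyskinesia as well, and LID rats had no cannula. Of the markers of striatal projection neurons, 9 of 9 measured genes lay in every group above the dim level, a mark set by olfactory receptor genes. Markers of cortical excitatory neurons were also seen, with 5 of 6 above it in Normal and 3 to 4 of 6 in the other groups, and their mean was 8.02 in Normal, 7.41 in PD, 6.87 in LID, 6.50 in LID+Vehicle and 6.58 in LID+PD98059. At an unadjusted p under 0.05 by limma with a fold of at least 1.2, 3 of the 6 were lower in PD against Normal, as were 714 of all 36685 transcripts. In the 3 L-DOPA groups against PD 4 of the 6 were lower at that threshold, as were 1918 of all 36685 transcripts. In both comparisons 0 of the 6 passed after adjustment. The part of this cortical signal in the results was not tested.

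Cells that divide copy their DNA in S phase and part it in mitosis. Cyclins switch on cyclin-dependent kinases at each step, the MCM helicase and nucleotide enzymes serve replication, and mitotic kinases, kinesins and kinetochore proteins build the spindle. Many of these genes are transcribed together late in the cycle, through promoters with CCAAT boxes bound by NF-Y and a cell cycle homology region bound by the DREAM and MuvB complexes. Striatal neurons do not divide, and in the adult rodent forebrain cycling cells are found among progenitors of the subventricular zone, oligodendrocyte precursors and, after injury, microglia and other glia or infiltrating leukocytes.

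Values are log2 RMA signals, so that a difference of 1 is a doubling. Olfactory receptor genes are taken as little expressed in striatum, and 95% of their 69 transcripts had a mean under 5.85. That value serves as the dim level, and a gene under it was not told from background. Averaged over the 15 arrays, 14 of the 34 genes lay above it. The median signal of an array lay between 5.56 and 5.65, and pairs of arrays correlated between 0.966 and 0.987 over all transcripts.

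The proliferation genes were high in some L-DOPA rats and low in others within each of the 3 L-DOPA groups, and varied less among the 6 rats without L-DOPA. The mean of the 34 genes ran from 5.34 to 7.05 over the L-DOPA rats and from 5.39 to 5.69 over the rats without it. Mki67, which encodes the Ki-67 protein of cycling nuclei, read 7.16, 6.56 and 5.91 in Normal and 6.4, 6.57 and 5.84 in PD. In LID it read 8.26, 6.81 and 10.04 for replicates 1 to 3. In LID+Vehicle it read 9.28, 7.77 and 6.05, and in LID+PD98059 6.93, 9.11 and 6.20. LID replicate 3, LID+Vehicle replicate 1, LID+PD98059 replicate 2, LID replicate 1 and LID+Vehicle replicate 2 stood above all 6 rats without L-DOPA, while the other 4 L-DOPA rats lay within their range. In striatal homogenate, more cycling cells and more of these RNAs per cell cannot be told apart.

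Top2a, the DNA topoisomerase that untangles chromosomes before they part, had the same rats at the top. It read 6.07, 5.41 and 5.18 in Normal and 5.37, 5.76 and 5.12 in PD. The values were 6.94, 5.67 and 8.30 in LID, 7.35, 6.00 and 5.04 in LID+Vehicle, and 5.72, 7.38 and 5.33 in LID+PD98059. Again LID replicate 3 was highest, and LID+Vehicle replicate 3 was the lowest of the 9 L-DOPA arrays for both genes.

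**Figure D1:**
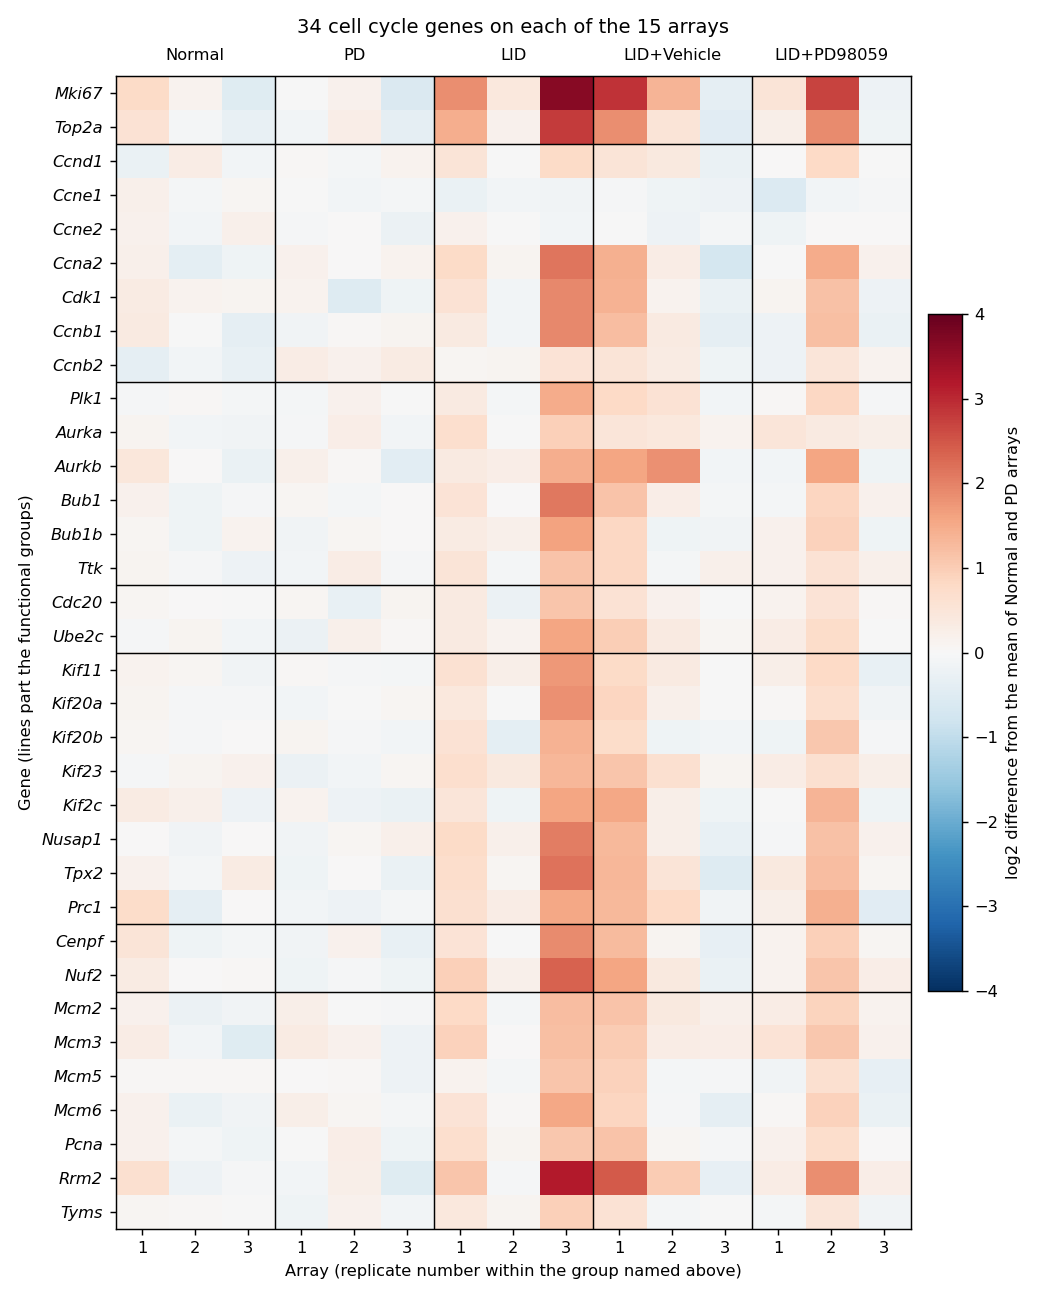
Each column is 1 array and each row 1 of 34 cell cycle genes, coloured by the log2 difference from the mean of the 6 Normal and PD arrays. LID replicate 3 has a median difference of 1.53, LID+Vehicle replicate 1 of 1.06 and LID+PD98059 replicate 2 of 0.90, while LID+Vehicle replicate 3 and LID+PD98059 replicate 3 lie at -0.13 and -0.01.

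Most of the set had its peaks in the same rats. LID replicate 3 was the highest of the 9 L-DOPA arrays for 29 of the 34 genes. LID+Vehicle replicate 1 and LID+PD98059 replicate 2 were each among the 4 highest for 33 genes, and LID replicate 1 for 27. Above the highest of the 6 arrays without L-DOPA stood 32 genes in LID replicate 3, 32 in LID+Vehicle replicate 1, 32 in LID+PD98059 replicate 2, 29 in LID replicate 1 and 19 in LID+Vehicle replicate 2. The same count was 9 in LID+PD98059 replicate 1, 4 in LID replicate 2, 1 in LID+PD98059 replicate 3 and 0 in LID+Vehicle replicate 3. Over all transcripts that share ran from 14.7% to 18.3% of an array, without such a split. Relative to the mean of the 6 arrays without L-DOPA, the median gene was 0.55 higher in LID replicate 1, 0.30 in LID+Vehicle replicate 2, 0.13 in LID+PD98059 replicate 1 and 0.01 in LID replicate 2.

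Pairs of the 34 genes correlated over the 9 L-DOPA arrays with a median r of 0.90 (561 pairs), against a mean of 0.0057 over all pairs of transcripts. Over all 15 arrays the median was 0.87, and over the 6 arrays without L-DOPA it was 0.26. These are descriptions over arrays that share the pattern just given, and the genes are not replicates of one another.

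Promoters of 5 genes that moved together are shown here, 4 with the motifs known from late cell cycle promoters and 1, Nuf2, without them, beside that of a cyclin that did not move with them, Ccne1. The windows are the 250 bases before the annotated start, from RefSeq on GRCr8, read 5′ to 3′ on the strand of the gene. Capitals mark CCAAT or its reverse ATTGG, and TTTGAA or TTCGAA, the core of the cell cycle homology region, on either strand. They lie at chr1:199952594-199952843 (minus strand) for Mki67, chr10:84473094-84473343 (minus) for Top2a, chr20:19265043-19265292 (plus) for Cdk1, chr8:71320585-71320834 (minus) for Kif23, chr13:84255599-84255848 (minus) for Nuf2 and chr1:99927910-99928159 (minus) for Ccne1.
Mki67: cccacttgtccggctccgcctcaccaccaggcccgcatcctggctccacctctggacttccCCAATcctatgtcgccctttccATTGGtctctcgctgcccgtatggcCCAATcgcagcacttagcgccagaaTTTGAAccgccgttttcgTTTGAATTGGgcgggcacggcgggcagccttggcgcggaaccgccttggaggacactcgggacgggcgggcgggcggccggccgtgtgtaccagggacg
Top2a: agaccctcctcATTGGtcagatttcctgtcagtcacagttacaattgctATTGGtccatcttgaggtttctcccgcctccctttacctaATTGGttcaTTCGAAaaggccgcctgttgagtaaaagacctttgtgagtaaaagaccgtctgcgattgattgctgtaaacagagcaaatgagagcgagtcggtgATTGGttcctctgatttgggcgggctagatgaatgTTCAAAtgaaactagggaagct
Cdk1: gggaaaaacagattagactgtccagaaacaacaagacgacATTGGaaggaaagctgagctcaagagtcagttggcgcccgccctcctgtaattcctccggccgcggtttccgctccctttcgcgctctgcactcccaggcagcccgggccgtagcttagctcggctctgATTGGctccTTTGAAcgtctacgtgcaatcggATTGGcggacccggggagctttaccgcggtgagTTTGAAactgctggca
Kif23: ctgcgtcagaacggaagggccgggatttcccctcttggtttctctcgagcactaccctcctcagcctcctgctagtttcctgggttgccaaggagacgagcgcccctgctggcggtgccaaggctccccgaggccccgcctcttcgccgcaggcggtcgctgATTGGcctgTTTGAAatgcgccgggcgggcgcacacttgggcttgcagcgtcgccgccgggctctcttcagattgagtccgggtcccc
Nuf2: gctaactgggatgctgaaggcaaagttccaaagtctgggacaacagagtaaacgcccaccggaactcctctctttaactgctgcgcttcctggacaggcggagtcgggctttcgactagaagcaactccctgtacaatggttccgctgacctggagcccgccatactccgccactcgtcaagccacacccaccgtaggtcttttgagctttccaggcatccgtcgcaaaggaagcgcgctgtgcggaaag
Ccne1: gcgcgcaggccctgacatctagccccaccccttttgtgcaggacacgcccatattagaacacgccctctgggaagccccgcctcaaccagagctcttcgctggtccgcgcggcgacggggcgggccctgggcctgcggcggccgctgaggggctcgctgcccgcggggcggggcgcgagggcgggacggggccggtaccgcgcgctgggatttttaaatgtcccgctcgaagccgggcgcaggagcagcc
A window was found for 27 of the 34 genes. CCAAT on either strand was held by 19 of the 27 (70.4%), against 34.3% of 27457 promoters in the table, and at least 2 copies by 14 (51.9% against 9.77%). TTTGAA or TTCGAA was held by 10 (37.0% against 17.3%), and the E2F words TTTCCCGC or TTTGGCGC by 3 (11.1% against 1.26%), namely Mcm5, Mcm6 and Tyms. Matches that overlap, as TTTGAA and ATTGG do once in the Mki67 window, were both counted. Mki67 and Top2a have 4 CCAAT matches each, Cdk1 has 3 and Kif23 has 1, and the Ccne1 window holds none of these words. Nor do 4 others of the 27, those of Nuf2, Kif2c, Bub1 and Aurka, whose levels correlated with Mki67 at 0.95, 0.96, 0.91 and 0.76 over the 9 L-DOPA arrays, so these words did not separate the genes that moved with Mki67 from Ccne1.

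Among the cyclins, Ccna2, Ccnb1, Ccnd1 and Ccnb2 followed Mki67, as did Cdk1, and the E-type cyclins did not. Cdk1, the kinase that drives entry into mitosis, read 4.40, 4.23 and 4.18 in Normal, 4.23, 3.57 and 3.91 in PD, 4.65, 3.98 and 6.01 in LID, 5.49, 4.24 and 3.82 in LID+Vehicle and 4.21, 5.28 and 3.89 in LID+PD98059. Only LID replicate 3 brought it over the dim level. Ccna2, the cyclin of S phase and early mitosis, had a range of 2.85 over the 15 arrays, from 4.37 in LID+Vehicle replicate 3 to 7.22 in LID replicate 3, and Ccnb1, the partner of Cdk1, one of 2.30. The correlation with Mki67 over the 9 L-DOPA arrays was 0.97 for Cdk1, 0.97 for Ccnb1, 0.96 for Ccna2, 0.95 for Ccnd1 and 0.84 for Ccnb2. For Ccne1 and Ccne2, which act with Cdk2 at the start of S phase, it was 0.24 and 0.08. Ccne1 lay between 6.14 and 6.90 on all 15 arrays and Ccne2 between 6.42 and 6.86, so both signals were above the dim level and stayed in a narrow band. The Ccne1 signal was identical, at 6.570352, on PD replicate 2, LID replicate 2 and LID+PD98059 replicate 2. Whether its transcript on the array responds to the level of the RNA was not tested.

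Ccnd1, the D-type cyclin that growth signals induce, and Ccnb2 were above the dim level on all 15 arrays. Ccnd1 read 6.41, 6.95 and 6.55 in Normal, 6.70, 6.58 and 6.81 in PD, 7.19, 6.65 and 7.44 in LID, 7.18, 7.05 and 6.4 in LID+Vehicle and 6.70, 7.46 and 6.66 in LID+PD98059. Its highest rat was LID+PD98059 replicate 2, with LID replicate 3 next. Ccnb2, a second mitotic cyclin, read 8.17, 8.44 and 8.23 in Normal, 8.83, 8.73 and 8.86 in PD, 8.61, 8.66 and 9.10 in LID, 9.06, 8.86 and 8.37 in LID+Vehicle and 8.35, 9.04 and 8.69 in LID+PD98059. It was the 1 member whose PD rats all lay above the Normal rats, against 5.92% of all transcripts, and Nuf2 the 1 whose PD rats all lay below them, against 4.58%.

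**Figure D2:**
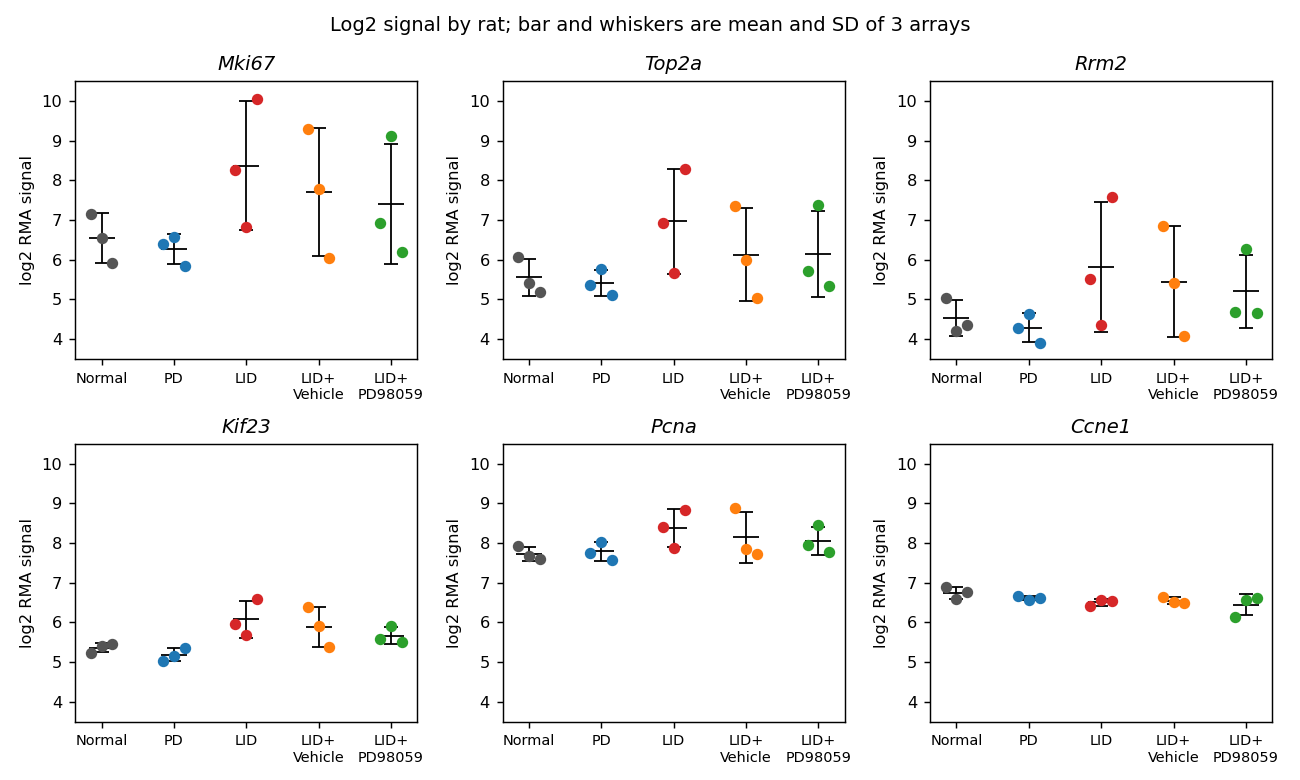
Log2 RMA signal of 6 cell cycle genes, 1 point per rat, with bar and whiskers for the mean and SD of 3 rats. Mki67, Top2a and Rrm2 spread widely within each L-DOPA group, with Mki67 from 6.81 to 10.04 in LID, and Ccne1 stays between 6.14 and 6.90 on every array.

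The mitotic kinases and checkpoint genes had the same peaks with smaller spans. Plk1, a kinase of mitotic entry, read 6.46, 6.04 and 7.60 in LID, 6.90, 6.69 and 5.98 in LID+Vehicle and 6.16, 6.94 and 6.05 in LID+PD98059, against 6.03 to 6.28 in the 6 rats without L-DOPA. Aurkb, the kinase of the chromosomal passenger complex, was the member whose highest array was LID+Vehicle replicate 2. It read 5.67, 5.25 and 4.96 in Normal, 5.43, 5.26 and 4.80 in PD, 5.57, 5.48 and 6.67 in LID, 6.79, 7.06 and 5.11 in LID+Vehicle and 5.13, 6.80 and 5.05 in LID+PD98059. Bub1, Bub1b and Ttk, which hold the spindle checkpoint, peaked in LID replicate 3 at 6.37, 5.49 and 5.61, and the last 2 never passed the dim level. Cdc20 and Ube2c, which serve the anaphase-promoting complex, reached 6.76 and 7.03 in the same rat.

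Among spindle motors and kinetochore genes, the spread between rats of a group was smallest for Kif23. Kif23, a kinesin of the midbody, was 5.24, 5.40 and 5.45 in Normal and 5.03, 5.17 and 5.37 in PD. It was 5.95, 5.68 and 6.59 in LID, 6.4, 5.90 and 5.39 in LID+Vehicle, and 5.58, 5.92 and 5.51 in LID+PD98059. It was the only member for which all 9 L-DOPA rats lay above the 3 PD rats, although all 3 PD rats and 4 of the 9 were under the dim level. Nuf2, of the NDC80 complex that ties kinetochores to microtubules, read 4.18, 4.32 and 4.19 in PD and 5.29, 4.57 and 6.73 in LID, and Cenpf reached 6.78 in LID replicate 3. Tpx2, which nucleates spindle microtubules, read 5.44, 5.17 and 5.59 in Normal, 5.08, 5.26 and 4.98 in PD, 5.94, 5.34 and 7.42 in LID, 6.59, 5.77 and 4.75 in LID+Vehicle and 5.64, 6.49 and 5.35 in LID+PD98059. Kif11, Kif20a, Kif20b, Kif2c, Nusap1 and Prc1 each peaked in LID replicate 3 too, at 6.82, 7.02, 5.15, 5.65, 7.14 and 7.15.

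Of the genes of replication, Rrm2 had the second widest range of the set. Rrm2, a subunit of ribonucleotide reductase, read 5.05, 4.20 and 4.35 in Normal, 4.29, 4.64 and 3.91 in PD, 5.51, 4.35 and 7.58 in LID, 6.85, 5.43 and 4.07 in LID+Vehicle and 4.69, 6.27 and 4.67 in LID+PD98059. It crossed the dim level in 3 rats, 1 of each L-DOPA group. Pcna, the sliding clamp of DNA polymerases, which also serves DNA repair, read 7.92, 7.68 and 7.59 in Normal, 7.75, 8.03 and 7.58 in PD, 8.41, 7.87 and 8.84 in LID, 8.88, 7.85 and 7.71 in LID+Vehicle and 7.94, 8.45 and 7.78 in LID+PD98059. Tyms, which makes thymidylate, read 7.21, 7.15 and 7.09 in Normal, 6.96, 7.29 and 7.0 in PD, 7.54, 7.23 and 8.08 in LID, 7.69, 7.03 and 7.09 in LID+Vehicle and 7.04, 7.61 and 6.97 in LID+PD98059. Both were above the dim level everywhere, and their peaks fell in the same rats. Mcm2, Mcm3, Mcm5 and Mcm6, subunits of the replicative helicase, spanned 1.45, 1.66, 1.44 and 1.89 over the 15 arrays.

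Group comparisons asked what the lesion, L-DOPA, infusion and PD98059 did to these levels on average. Each used limma over all 15 arrays, two-sided, with p adjusted over 36685 transcripts. Calls needed a fold change of 1.2 or more in either direction and an adjusted p under 0.05, and the count with an unadjusted p is given beside them. With 3 rats against 3 an exact permutation test cannot go below 0.1. Each array came from a separate rat, so the p-values rest on the spread between rats. In limma that spread was estimated for each transcript over all 5 groups together, but it differed between them. The SD of the mean of the 34 genes was 0.16 in Normal, 0.07 in PD, 0.77 in LID, 0.62 in LID+Vehicle and 0.54 in LID+PD98059. The limma p of PD against Normal thus also draws on the wider spread of L-DOPA rats. Across the 5 groups by limma's F test, 0 of the 34 genes passed after adjustment and 1, Kif23, had an unadjusted p under 0.05, against 0.191% and 10.1% of all transcripts.

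In LID against PD, 32 of the 34 genes were higher, with a median log2 fold change of 0.73, where 44.6% of all transcripts were higher and their median was -0.03. None passed after adjustment in limma (0 of 34, against 0.00545% of all transcripts), and 8 were higher at the unadjusted threshold, against 3.48%. These were Kif23, Nuf2, Kif11, Aurka, Tyms, Mki67, Top2a and Tpx2. The log2 fold change of Mki67 was 2.10 (SE 0.92, 95% interval 0.12 to 4.09, limma p = 0.0394, adjusted p = 0.539, exact permutation p = 0.1), from 6.27 ± 0.38 in PD to 8.37 ± 1.62 in LID (SD, n = 3). Top2a was 1.55 higher (SE 0.69, adjusted p = 0.546 by limma), and its LID and PD rats overlapped. The smallest p was that of Kif23, with 0.89 (SE 0.25, limma p = 0.0038, adjusted p = 0.411, exact permutation p = 0.1). The other 5 were higher by 1.30 for Nuf2 (SE 0.50), 1.13 for Tpx2 (SE 0.51), 0.88 for Kif11 (SE 0.34), 0.53 for Tyms (SE 0.23) and 0.50 for Aurka, a kinase of spindle poles (SE 0.21). Ccne1 and Ccnb2 were the 2 that were not higher, at -0.11 and -0.02. Some marker lists of other cells shifted in the same comparison. The median log2 fold change was 1.72 for the interferon-stimulated genes (10 of 10 higher), 0.80 for microglia (10 of 12), 0.75 for reactive astrocytes (11 of 11), 0.51 for lymphocytes and infiltrating leukocytes (10 of 11) and -0.62 for cortical excitatory neurons (0 of 6). Other medians were -0.03 for projection neurons, -0.12 for oligodendrocytes, 0.14 for their precursors, -0.08 for subventricular neuroblasts and progenitors, 0.03 for endothelium and pericytes and -0.11 for ependyma. In LID replicate 2 the microglia and leukocyte means, 7.44 and 5.49, were under all 3 PD rats. Its interferon mean, 6.41, lay within the PD range, and its astrocyte mean, 6.82, above it. The part of any of these lists in the higher levels of the cell cycle genes was not tested.

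The PD levels of Kif23, Kif11, Top2a and Tpx2 were under the dim level. Counted from that level instead, the LID mean stood 0.22, 0.09, 1.12 and 0.38 higher on the log2 scale, and the Nuf2 mean lay under it in both groups. For Kif11, LID replicates 1 and 2, at 5.69 and 5.30, were under that level themselves. LID replicate 2 was also under it for Kif23, Top2a and Tpx2. LID and PD did not overlap for 9 genes (Kif23, Nuf2, Kif11, Mki67, Tpx2, Nusap1, Bub1b, Prc1 and Aurkb), where 6.00% of all transcripts were higher without overlap. Some of these differences were read on signals not told from background. Bub1b was under the dim level on every array, and Aurkb was under it in all 3 PD rats and in LID replicates 1 and 2. The count of 8 rested on single rats. Without LID replicate 3 it was 1 and the median log2 fold change 0.30, and without LID replicate 2 it was 27 and the median 1.0. It was 2 without PD replicate 1 or 3 and 5 without PD replicate 2.

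When the 3 L-DOPA groups were set together against PD, which uses the LID rats again, 32 of 34 were higher with a median of 0.49, and 44.0% of all transcripts were higher. By limma 0 of 34 passed after adjustment (0.0164% of all transcripts in either direction), and 2 were higher at the unadjusted threshold, against 3.83%. They were Kif23, at 0.69 (SE 0.21, adjusted p = 0.253, exact permutation p = 0.0182 for 9 rats against 3), and Aurka, at 0.38 (SE 0.17, adjusted p = 0.426 by limma, exact permutation p = 0.0727). Kif23 alone had no overlap, against 1.29% of all transcripts, but its PD level was under the dim level, as were 4 of the 9 L-DOPA rats. Counted from that level, the mean of the L-DOPA groups stood 0.028 higher. The same lists shifted here, by a median of 1.32 for interferon-stimulated genes, 1.03 for microglia, 1.16 for reactive astrocytes, 0.77 for leukocytes and -0.88 for cortical excitatory neurons. Mki67 was 1.56 higher (SE 0.75, limma p = 0.0578, exact permutation p = 0.0955), while Nuf2 lay under the dim level in both sets on average. The count of 2 ran from 1 to 14 when single rats were left out, being 14 without LID replicate 2, 8 without LID+Vehicle replicate 3 and 6 without LID+PD98059 replicate 3. Leaving out PD replicate 1 or 3, LID replicate 1 or 3, LID+Vehicle replicate 1 or 2, or LID+PD98059 replicate 1 or 2 gave 1.

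The lesion was examined without L-DOPA. In PD against Normal 14 genes were higher and 20 lower, with a median of -0.04, and 51.7% of all transcripts were higher. By limma 0 passed after adjustment (0% of all transcripts), and only Ccnb2 was higher at the unadjusted threshold (2.36% of all transcripts). It went from 8.28 ± 0.14 to 8.81 ± 0.07 (SD, n = 3), a log2 fold change of 0.53 (SE 0.20, limma p = 0.0211, adjusted p = 1.0, exact permutation p = 0.1). Ccne2, Ccne1 and Cdk1 followed by p, at -0.18, -0.14 and -0.37.

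Infused rats were compared next, and no member was called at the unadjusted threshold in any of these comparisons. In LID+Vehicle against LID 32 genes were lower, with a median of -0.27, where 47.7% of all transcripts were higher. By limma 0 passed with or without adjustment (3.68% of all transcripts were called without it). Tyms, Bub1b, Kif11 and Mcm6 had the smallest p, at -0.35, -0.55, -0.50 and -0.56. This sign rested on 1 rat. Without LID replicate 3 the median was 0.08, and without LID+Vehicle replicate 1 it was -0.60.

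In LID+PD98059 against LID+Vehicle, the comparison of inhibitor with vehicle, 13 genes were higher and 21 lower, with a median of -0.07, where 53.2% of all transcripts were higher. By limma 0 passed with or without adjustment (4.44% of all transcripts were called without it). Mki67 differed by -0.29, with a 95% interval from -2.27 to 1.70, and Top2a by 0.01, from -1.49 to 1.51. These intervals hold changes of several fold either way, so the groups were not shown to be alike. Aurkb was the gene with the smallest p, at -0.66 (SE 0.54, limma p = 0.241, adjusted p = 0.986, exact permutation p = 0.5). Kif23 was at -0.23, Mcm5 at -0.21 and Ccne1 at -0.10, and all 3 changed sign when 1 rat was left out. The median of the set was 0.23 without LID+Vehicle replicate 1 and -0.34 without LID+PD98059 replicate 2.

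Against LID, which these values share with the comparisons above, all 34 genes were lower in LID+PD98059, with a median of -0.41, where 50.6% of all transcripts were higher. The median was 0.04 without LID replicate 3. By limma 0 passed with or without adjustment (4.74% of all transcripts were called without it), and Kif11 came nearest, at -0.62 (SE 0.34, limma p = 0.0928, exact permutation p = 0.4), then Tyms at -0.41, Kif23 at -0.41 and Kif20a at -0.54. With both infused groups against LID, 33 were lower with a median of -0.31, which was 0.09 without LID replicate 3, where 49.0% of all transcripts were higher, and again 0 were called by limma with or without adjustment (3.55% of all transcripts were called without it). There too Kif11 and Tyms had the smallest p, at -0.56 and -0.38, before Mcm6 at -0.52 and Bub1b at -0.48.

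**Figure D3:**
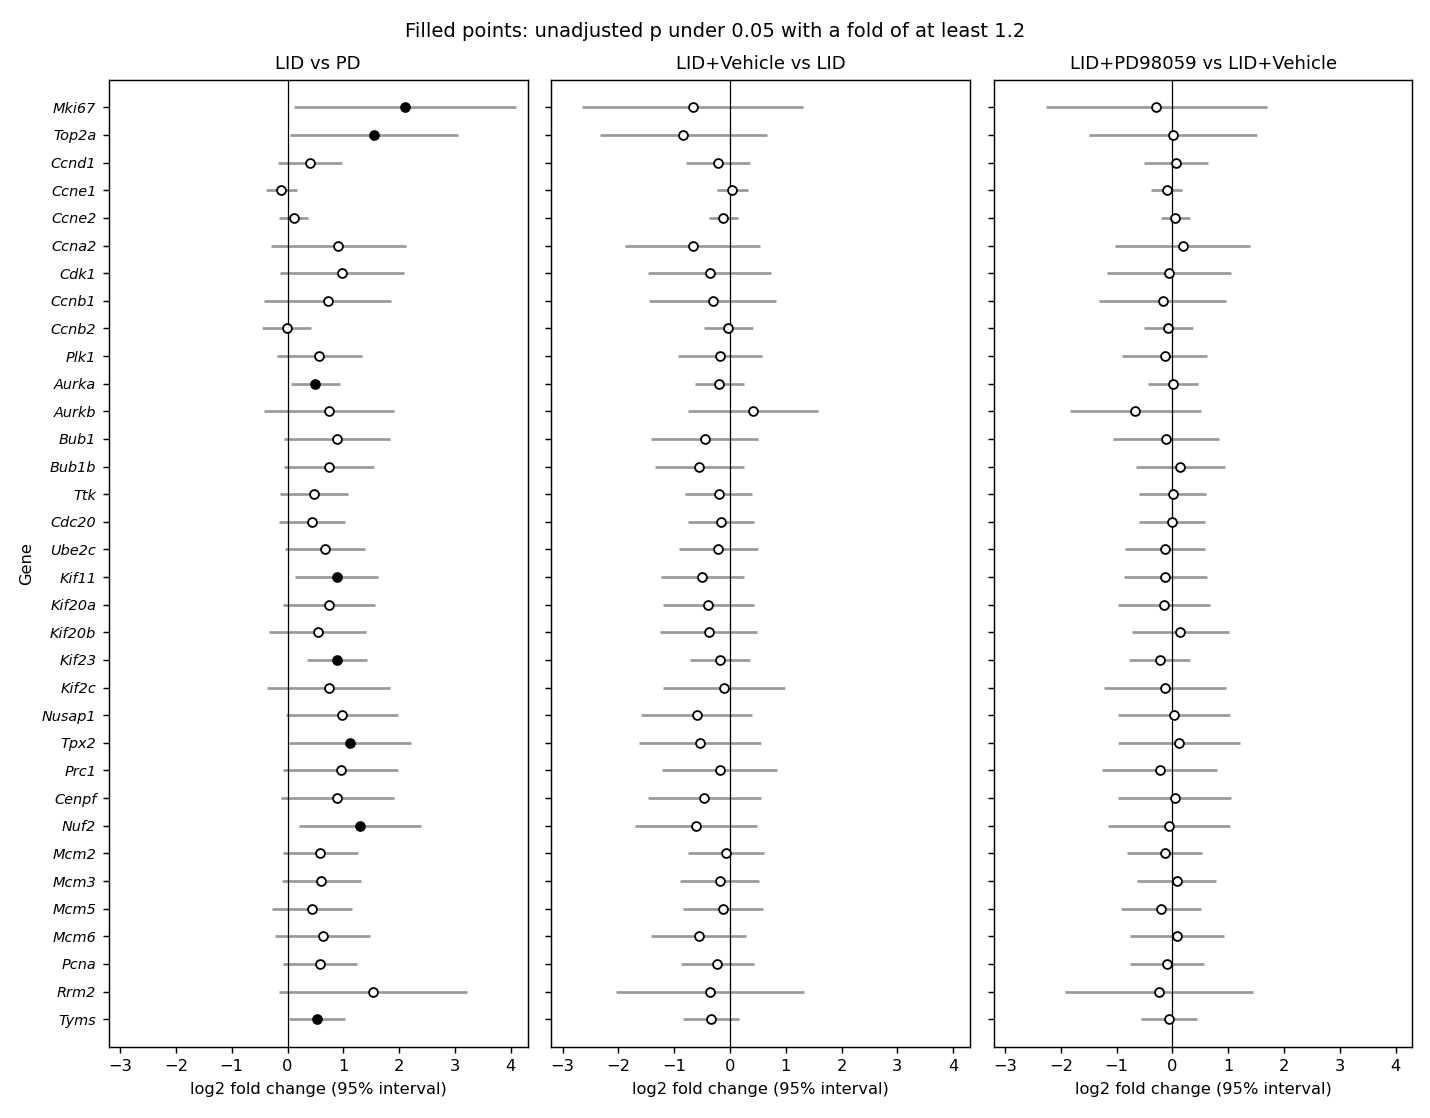
Log2 fold change with its 95% interval from limma for each of the 34 genes in 3 comparisons, with filled points where the unadjusted p was under 0.05 and the fold at least 1.2. The 8 filled points all lie in LID vs PD, where Mki67 stands at 2.10 with an interval of 0.12 to 4.09.

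A list of 78 other cell cycle genes, of which 67 were measured, covered inhibitors and pocket proteins, E2F and MuvB regulators, other G1 kinases, replication and mitosis. In LID against PD 60 of the 67 were higher, with a median of 0.26, where 44.6% of all transcripts were higher. By limma 0 passed, and 6 (8.96%) were higher at the unadjusted threshold, against 3.48% of all transcripts. Melk, a mitotic kinase, was first, at 0.97 (SE 0.15, limma p = 2.8e-05, adjusted p = 0.261, exact permutation p = 0.1), then Cdk6 at 0.58, Rb1 at 0.41, Cdkn2c at 0.66, Ndc80 at 1.11 and Pbk at 0.89. Rb1 and Cdkn2c are brakes on the cycle, a pocket protein and an inhibitor of Cdk4 and Cdk6. By list, the medians were 0.49 for the 26 other mitotic genes, 0.18 for the 16 other replication genes, 0.25 for the 11 E2F, MuvB and FoxM1 regulators and 0.11 for the 9 inhibitors and pocket proteins. Of the 26 other mitotic genes, 1, 2 and 2 lay above the dim level in PD replicates 1 to 3. In LID replicates 1 to 3 it was 2, 1 and 15. Their mean read 4.79, 4.90 and 4.86 in PD and 5.17, 4.86 and 6.04 in LID. Without LID replicate 3 Melk was at 0.84, Cdk6 at 0.45, Rb1 at 0.35, Cdkn2c at 0.50, Ndc80 at 0.54 and Pbk at 0.46.

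Melk was higher in every L-DOPA rat than in any rat without L-DOPA, and correlated with Mki67 at 0.69 over the 9 L-DOPA arrays. It read 4.59, 4.19 and 4.32 in Normal, 4.39, 4.44 and 4.20 in PD, 5.27, 5.11 and 5.58 in LID, 4.94, 5.28 and 4.88 in LID+Vehicle and 4.89, 5.16 and 4.88 in LID+PD98059. Every value was under the dim level, so these differences were read on signals not told from background. For the 3 L-DOPA groups against PD its log2 fold change was 0.77 (SE 0.13, adjusted p = 0.0692 by limma, exact permutation p = 0.00455, the smallest that 9 against 3 can give). With array weights the adjusted p was 0.0323, and in limma's F test over the 5 groups it was 0.0444. The same comparison put Rb1 at 0.38, Cdk6 at 0.42 and Cdkn1a at 0.38, and 4 of the 67 (5.97%) were higher at the unadjusted threshold, against 3.83%.

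In the other comparisons 0 of the 67 passed after adjustment, and the share called without it was close to that of all transcripts or below it. It was 1 gene in PD against Normal (1.49%, against 4.31%), 2 in LID+Vehicle against LID (2.99%, against 3.68%), 3 in LID+PD98059 against LID+Vehicle (4.48%, against 4.44%), 3 in LID+PD98059 against LID (4.48%, against 4.74%) and 2 in the infused groups against LID (2.99%, against 3.55%). These counts are no result about the list, and the genes are given by value alone. Ccnd2 was at -0.35 in PD against Normal. In LID+Vehicle against LID, Cdkn1a, the p21 inhibitor of cyclin-dependent kinases, was at 0.57 and Mcm7 at -0.39. In LID+PD98059 against LID+Vehicle, Cdkn1a was at -0.60, Chek1 at -0.35 and E2f5 at 0.37, or -0.032 with its transcripts averaged. Against LID, Lin54 was at -0.36, Chek1 at -0.29 and Melk at -0.34 in LID+PD98059, and Melk at -0.31 and Mybl2 at -0.32 in the infused groups together.

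The spread of the proliferation genes between L-DOPA rats went along with other lists of genes. Mki67 was set against the mean of 11 marker lists over the 9 L-DOPA arrays, with two-sided exact permutation p adjusted over the 11. The lists were chosen with earlier results of these data known, so these p-values are no independent evidence. The 10 interferon-stimulated genes gave r = 0.97 (exact permutation p = 1.38e-05, adjusted p = 0.000152, Spearman rho 0.97, exact permutation p = 0.000165). Their mean read 8.12, 6.41 and 8.81 in LID, 8.22, 7.57 and 6.00 in LID+Vehicle and 6.33, 8.38 and 6.28 in LID+PD98059, and 5.76 to 7.01 in the 6 rats without L-DOPA. The r was 0.96 without LID replicate 3 and LID+Vehicle replicate 3, the 2 farthest from the median of Mki67, and 0.97 with the group means removed. The order of rats by Mki67 was thus nearly their order by interferon-stimulated genes.

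Markers of lymphocytes and infiltrating leukocytes gave r = 0.83 (exact permutation p = 0.0067, adjusted p = 0.0184, rho 0.87, exact permutation p = 0.00451), and r = 0.90 without the same 2 rats and 0.93 with group means removed. Their mean lay between 5.49 and 7.50 in LID, 6.47 and 7.91 in LID+Vehicle and 6.15 and 7.96 in LID+PD98059. In Normal it lay between 5.54 and 6.89 and in PD between 5.82 and 6.21, and 6 of the 11 genes were above the dim level in Normal. The list was drawn up with Ptprc, Cd4, Ly86 and Lyz2 among others, and whether it reads infiltrating cells or resident microglia was not tested. Oligodendrocyte markers gave r = -0.91 (exact permutation p = 0.00203, adjusted p = 0.00743, rho -0.85, exact permutation p = 0.00607, and r = -0.98 without the 2 rats), with means of 10.23 to 10.66 in LID, 10.20 to 10.51 in LID+Vehicle and 10.21 to 10.70 in LID+PD98059. Markers of endothelium and pericytes gave r = -0.89 (exact permutation p = 0.00165, adjusted p = 0.00743, rho -0.87, exact permutation p = 0.00451, and r = -0.80 without the 2 rats), with means of 7.62 to 7.98, 7.78 to 8.05 and 7.68 to 8.08 in the same groups.

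Microglia gave r = 0.71 (exact permutation adjusted p = 0.0655, rho 0.82 with adjusted p = 0.0237), with a mean of 7.44 in LID replicate 2 and 9.43 in LID+Vehicle replicate 1 as the ends of its range. Reactive astrocytes gave r = 0.69 (exact permutation adjusted p = 0.0779, rho 0.77 with adjusted p = 0.0392, and r = 0.93 with group means removed), and striatal projection neurons r = -0.67 (exact permutation adjusted p = 0.0779, rho -0.67 with adjusted p = 0.0925). Oligodendrocyte precursors (r = -0.34), neuroblasts and progenitors of the subventricular zone (r = -0.13), ependyma (r = -0.11) and cortical excitatory neurons (r = 0.47) had an adjusted exact permutation p between 0.271 and 0.777. The neuroblast and progenitor mean stayed between 6.81 and 7.14 over the 9 rats, and all 3 measured ependymal genes lay under the dim level. The part of any of these cells or of the interferon genes in the spread of Mki67 was not tested.

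**Figure D4:**
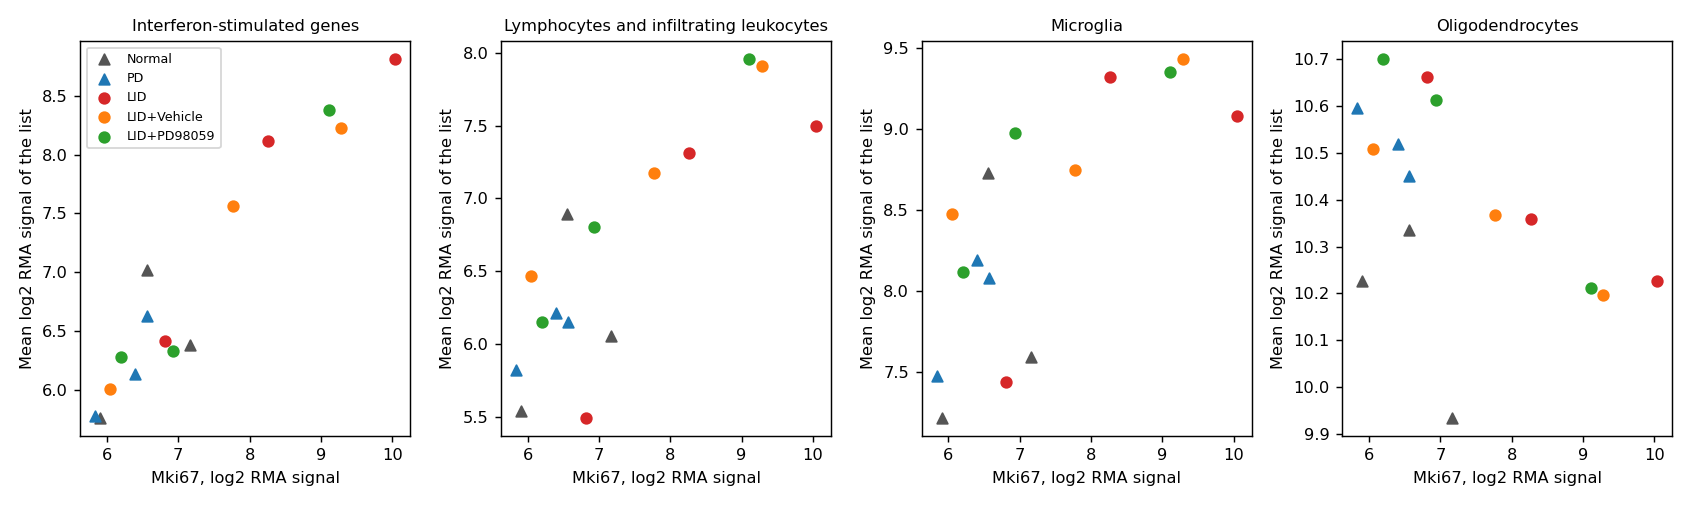
Mki67 signal on the x axis against the mean log2 RMA signal of 4 marker lists, 1 point per array, with circles for L-DOPA rats and triangles for rats without it. Over the 9 circles r is 0.97 for interferon-stimulated genes, 0.83 for lymphocytes and leukocytes, 0.71 for microglia and -0.91 for oligodendrocytes.

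Gene by gene, 24 of the other 33 members (72.7%) correlated with Mki67 above 0.9 over the 9 L-DOPA arrays, as did 15 of the 67 other cell cycle genes (22.4%), 8 of the 10 interferon-stimulated genes (80.0%) and 2.42% of all 18165 genes. Of the 50 genes most like Mki67, with r from 0.965 to 0.99, 5 were members, 4 were other cell cycle genes, 2 were on the interferon list and 39 on none. The lists are not complete, so the 39 were not shown to lie outside the cell cycle or the interferon response. The first 4 were Rbl1, a pocket protein (r = 0.99), Smc4, a condensin subunit (r = 0.99), Top2a (r = 0.99) and H1f5, a linker histone (r = 0.99). These genes were picked on the values themselves, and the arrays are the 9 already described.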

How the data were processed

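RNA was hybridized to Affymetrix Rat Gene 2.0 ST arrays. The authors corrected background and normalized the 15 arrays by RMA in Affymetrix Expression Console (version not given in the sources used here), and the deposited values are log2 signals. RMA gives every array the same distribution, so only differences relative to the other transcripts are seen. Both an exon level option and a median over probes are described, and which summary the values hold is not stated. Array number, not depth, limits the precision. No scan date or batch was given in the sources used here.

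Values were used as deposited. Groups, taken from the sample titles, were fitted in limma 3.58.1 (lmFit and eBayes, R 4.3.3) without trend, with 1 mean per group in 1 fit over all 15 arrays, and Benjamini-Hochberg adjustment over 36685 transcripts. Methods and results of the study name an adjusted and an unadjusted p, so both counts are given. Exact permutation tests took every split of the arrays compared, and those of relations across arrays every pairing, in Python 3.11.15 with scipy 1.17.1 or in R. By the probe annotation, 18511 transcripts had 1 symbol, 575 several and 17599 none. Promoters came from RefSeq. Windows with several starts for a gene were taken once.

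The genes, lists and rules were chosen with earlier results of these data known, so no list was given a p for its change between groups, and the p of relations between Mki67 and marker lists are no independent evidence. In each comparison the text names the members past the unadjusted threshold, filled to 4 by the smallest p, and up to 6 other cell cycle genes past it. The 5 brightest members, the 5 of widest range, Mki67 and Top2a are described by array. Further members were added for their role after their values were seen. Simulated data with these spreads covered 4 comparisons of pairs of groups (PD with Normal, LID with PD, LID+Vehicle with LID, LID+PD98059 with LID+Vehicle). Shifts of log2 0.5 were called for 14.9% to 22.4% of the shifted transcripts. Shifts of log2 1 were called for 62.7% to 68.7% and shifts of log2 2 for 92.4% to 95.5%. Wrong calls numbered 6 to 10 of 36685 transcripts. These rates were not worked out separately for the cell cycle genes, whose spreads differed. By percentile of spread within groups, Mki67 stood at 99.7 and Top2a at 99.3, but Ccne1 at 30.1 and Ccne2 at 22.0. Mki67 was 2.10 higher in LID against PD with an adjusted p of 0.539 by limma. The rates therefore do not tell which shifts of the cell cycle genes would have been called. Alternatives covered the moderation, the arrays fitted, a replicate block, median centring, array weights, a filter on dim transcripts, averaging of transcripts, thresholds and each array left out.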

Additional observations from a re-analysis of the deposited data

How the results depend on the processing

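No member passed after adjustment (0 of 34) under any alternative that kept the adjusted threshold, also with each array left out. At the unadjusted threshold with the same fold, members passing were 1 in PD against Normal, 8 in LID against PD, 2 for the 3 L-DOPA groups against PD and 0 in the other comparisons, and transcripts passing were 1580, 2997, 1349 (LID+Vehicle against LID), 1629 (LID+PD98059 against LID+Vehicle), 1739 (LID+PD98059 against LID), 3324 (3 L-DOPA groups) and 1301 (infused groups against LID). For the 3 L-DOPA groups the 6 transcripts passing became 16 with a trend, 74 with array weights and 57 with dim transcripts removed. For LID against PD the 2 became 1 with the compared arrays alone and 1 with dim transcripts removed. With the 99th percentile of olfactory receptors, 6.41, as dim level, 8 members lay above it.

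No pairing of rats by replicate number was seen, which does not exclude one. Residuals of same-numbered arrays correlated on average at -0.015, with 6 of 30 pairs over 0.1, and 2 of 15 arrays correlated best with their own number. Arrays of other numbers correlated on average at 0.0074, with 15 of 60 pairs over 0.1. With the replicate block, transcripts passing were 2 for the 3 L-DOPA groups and 1 for LID against PD.

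With each array left out in turn, the median log2 fold change of the members ran from -0.08 to 0.03 for PD against Normal, 0.30 to 1.0 for LID against PD, -0.60 to 0.08 for LID+Vehicle against LID, -0.34 to 0.23 for LID+PD98059 against LID+Vehicle, -0.70 to 0.04 for LID+PD98059 against LID, 0.34 to 0.61 for the 3 L-DOPA groups and -0.57 to 0.09 for the infused groups. Transcripts passing ran over 0 to 1, 1 to 2, 0 to 1, 0 to 1, 0, 1 to 26 and 0 to 1 in the same order. Members higher at the unadjusted threshold, a range examined after seeing the data, were 1 to 27 in LID against PD and 1 to 14 for the 3 L-DOPA groups. Of 725 alternative values of named genes 719 kept direction and side of the threshold. Melk passed with array weights (0.78 for the 3 L-DOPA groups, adjusted p = 0.0323 by limma), and 5 turned sign. In LID+PD98059 against LID+Vehicle these were E2f5 with its transcripts averaged (-0.032) and, over single arrays left out, Kif23 (from -0.48 to 0.026, the latter without LID+Vehicle replicate 1), Mcm5 (-0.51 to 0.12, without the same array) and Ccne1 (-0.19 to 0.049, without LID+PD98059 replicate 1). In LID+PD98059 against LID it was Kif20a (-0.92 to 0.0094, without LID replicate 3). Apart from leaving out arrays, which changes the samples, the cause of these moves was not tested.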
